A study of Homo sapiens with 4 samples.

Results

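Translation initiation and elongation factors are the proteins that load a ribosome onto a messenger RNA, find its start codon and move the ribosome along the coding sequence. Their genes were taken as the protein-coding genes whose symbol begins with EIF or EEF, which left 61 of the 25798 gene IDs in the deposited tables. Of 124 gene IDs with such a symbol, 9 had symbols beginning with EIF2AK or EIF4EBP (eIF2α kinases, eIF4E-binding proteins and entries named after them), 4 were read-through or divergent transcripts and 50 were pseudogenes or other genes that do not code for protein. The cells were SW1990, an established line of human pancreatic cancer cells, labelled as wild type. They were given 100 nM erianin, a plant bibenzyl, or DMSO for 48 h, with 2 RNA-seq libraries in each group. The series' title names AKT and ASK1, a pair of protein kinases, as the compound's targets. Whether the replicates came from separate cultures is not given, so the p-values cover the spread of these libraries alone, and part or all of it may be technical. The line is a single tumour's cells in culture, and no other line or dose was analysed here.

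In initiation, eIF2 carries the initiator tRNA to the small ribosomal subunit, with eIF2B as its exchange factor, and eIF1, eIF1A, eIF3 and eIF5 join it there. The eIF4F complex, made of the cap-binding eIF4E, the scaffold eIF4G and the helicase eIF4A, brings that subunit to the capped end of the messenger. eIF5B then joins the large subunit. In elongation, eEF1A delivers each aminoacyl-tRNA, the eEF1B subunits recharge eEF1A with GTP, and eEF2 moves the ribosome by a codon. AKT lies upstream of mTORC1, a kinase complex known to control the eIF4E-binding proteins and the translation of messengers that begin with a run of pyrimidines, the terminal oligopyrimidine (TOP) messengers, among them those of several elongation factors. RNA levels such as these do not measure translation.

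TOP sequences are the feature of these genes that bears most directly on that pathway, so the starts of 8 of them are shown. Each line gives 10 bases before and 20 bases from an annotated RefSeq start on GRCh38.p14, read 5′ to 3′ on the gene's strand. Capitals mark the pyrimidines that follow without a break from the C at the annotated start, and where the bases before that C are also pyrimidines, as in EIF2S3 and EIF3F, they are left in lower case. The first 5 hold such a run and are on a list of 10 TOP messengers written for this report. EIF2S3 holds one and is not on the list. EEF1G, which is on the list, and EIF5B have no run that met the rule at the entry shown. The list is a short selection, so absence from it does not show that a gene is not a TOP messenger.
EEF1A1, chr6:73521013-73521042, minus strand: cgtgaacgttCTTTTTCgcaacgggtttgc
EEF2, chr19:3985444-3985473, minus strand: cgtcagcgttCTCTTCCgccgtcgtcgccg
EEF1B2, chr2:206159885-206159914, plus strand: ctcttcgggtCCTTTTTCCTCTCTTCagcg
EIF3F, chr11:7987327-7987356, plus strand: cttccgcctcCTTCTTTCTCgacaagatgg
EIF4B, chr12:53006446-53006475, plus strand: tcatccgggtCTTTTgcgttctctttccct
EIF2S3, chrX:24054946-24054975, plus strand: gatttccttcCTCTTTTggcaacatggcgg
EEF1G, chr11:62573872-62573901, minus strand: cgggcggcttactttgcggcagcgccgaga
EIF5B, chr2:99337379-99337408, plus strand: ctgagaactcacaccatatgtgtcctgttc

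A pyrimidine start was counted where a C followed by at least 4 bases that are each C or T, read on the gene's strand alone, began within 5 bases of an annotated start. It was found for 22 of the 49 translation factor genes with a RefSeq promoter entry, 44.9%, against 25.2% of the 27305 symbols in the table. A run counted from a C at the start itself was found for 13 of the 49, 26.5%, against 5.14% of all symbols. The 22 genes had a median mean FPKM of 42.1, against 16.8 for the 27 without a run. Their median log2 fold change in erianin against DMSO was −0.09 with 15 of 22 below 0, against −0.03 with 16 of 27 below 0 without a run. The log2 fold changes of the 22 ran from −0.41 to 0.15, and no test was made of this split. A match to these letters is a description and does not show where transcription starts in these cells.

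The 4 libraries held 59923935 to 63336545 counts, and the translation factor genes took 3.28% and 3.27% of them in DMSO and 3.25% and 3.16% after erianin. All 61 genes were among the 17090 with enough counts to be tested. All 7 markers of ductal epithelium (keratins, EPCAM, CDH1 and MUC1) were present in every library, and their summed level was 12697 to 13868 CPM, counts scaled to library size, here without the TMM factors. The 5 fibroblast markers summed to 34.8 on that scale in DMSO replicate 1 and to 6.57 to 9.05 in the other libraries, with 2 of the 5 at 0 in erianin replicate 1. Erianin replicate 2 stood apart in the TMM factor that scales library sizes, at 0.928 against 1.01 to 1.04.

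Elongation factor genes were the most abundant of the set. FPKM, which is scaled to transcript length and to library size, is used for levels between genes here. EEF1G, a subunit of eEF1B, had a mean of 2460 FPKM over the 4 libraries, EEF2 had 2366, EEF1A2 2053 and EEF1A1 1316. With the helicase gene EIF4A1, at 1174, these were the 5 translation factor genes among the 100 highest gene IDs by mean FPKM. EIF5A, whose product helps ribosomes through difficult peptide bonds, and EEF1D, another eEF1B subunit, followed at 907 and 858. At the other end, EIF4E3, a relative of the cap-binding protein, had 0.04 FPKM, with 56, 33, 14 and 12 counts in the 4 libraries.

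Levels within a complex were far from equal. The 14 genes of eIF3, a complex whose core subunits are thought to occur once each, ran from 8.68 FPKM for EIF3A to 496 for EIF3K, with a median of 105.6. EIF3G was next to EIF3K at 440, and EIF3J (11.8), EIF3M (19.9) and EIF3H (32.4) were near the low end. The 3 genes of the eIF2 trimer lay at 29.2 (EIF2S2, the β subunit), 26.3 (EIF2S3, the γ subunit) and 6.43 FPKM (EIF2S1, the α subunit). The scaffold gene EIF4G1 had 87.6 and the cap-binding EIF4E 5.64, while EIF4A1 had 1174. EIF2B4 and EIF2B5 had 33.2 and 27.3, against 5.71 for EIF2B3. FPKM summed over a gene's rows depends on the transcript lengths the authors' tools assigned, so these are orders of magnitude within the table. The genes also differ in GC content, in eIF3 from 37.9% for EIF3E to 60.3% for EIF3G. The part of GC content in these levels was not tested.

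**Figure D1:**
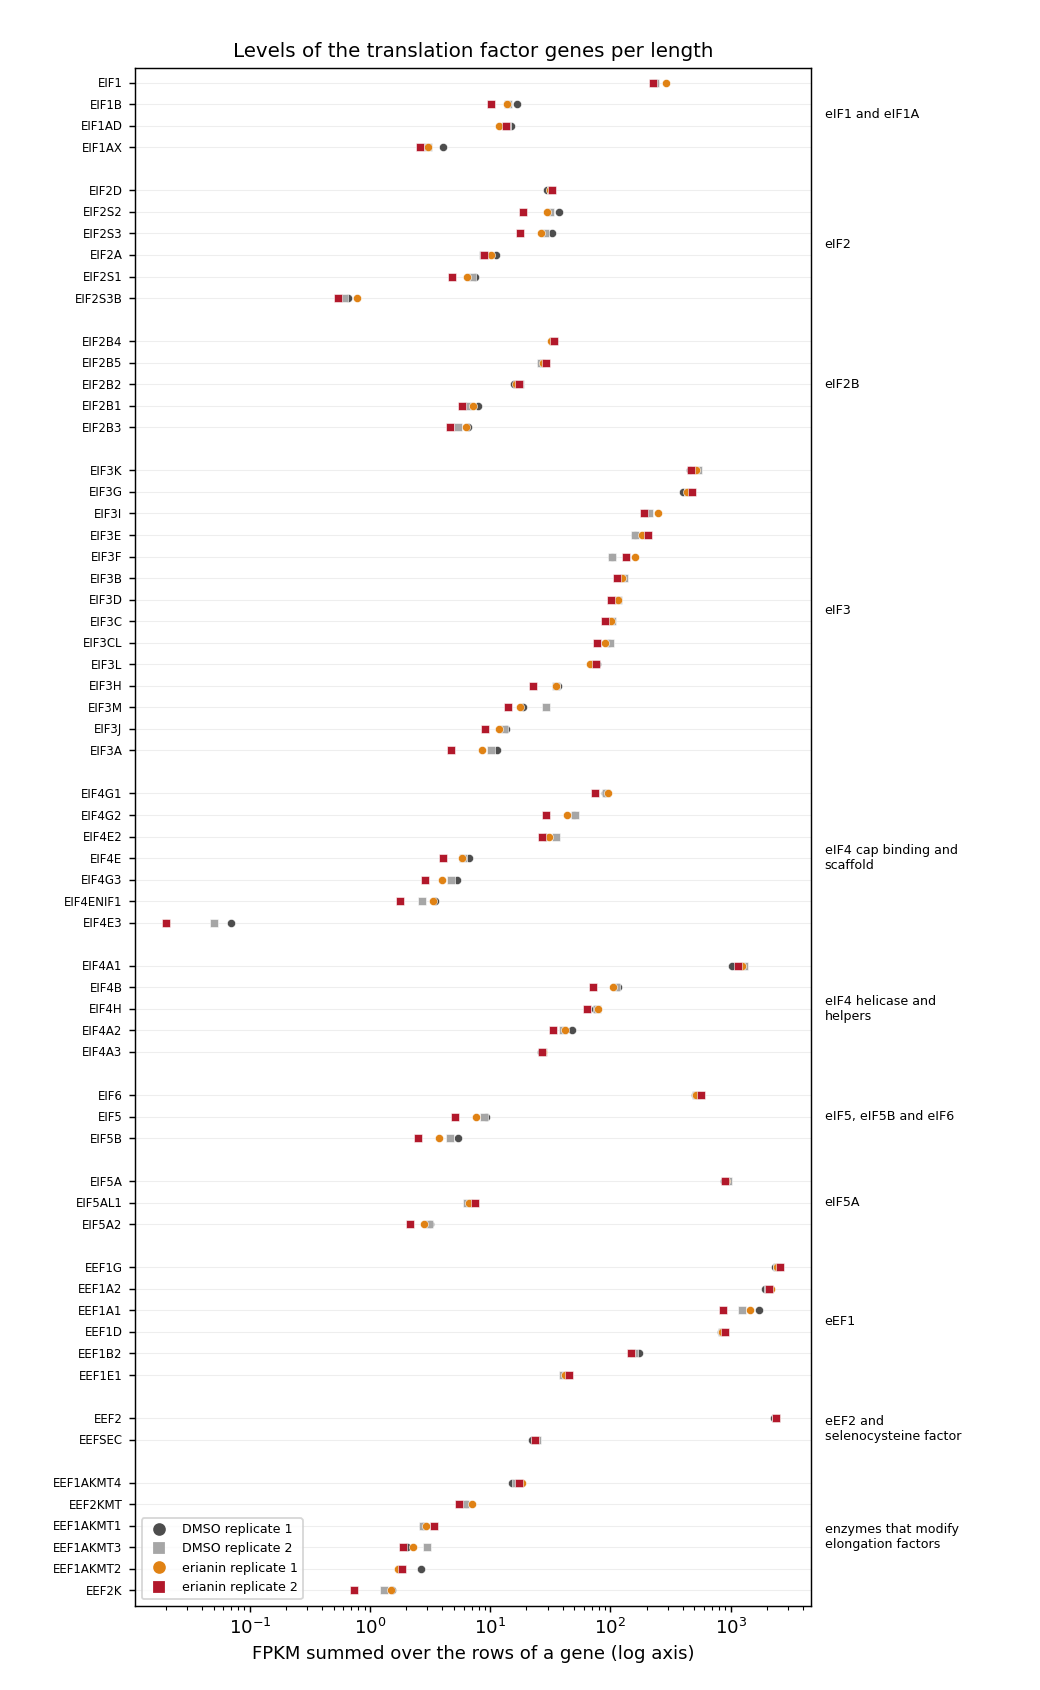
FPKM in each of the 4 libraries (points, log axis) for the 61 translation factor genes, grouped by role. EEF1G, EEF2, EEF1A2 and EEF1A1 lie furthest right, at means of 1316 to 2460 FPKM, and EIF4E3 furthest left.

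The question put to the RNA data was whether 48 h of erianin moved these genes. None of the 61 passed the threshold of 0.05 for the adjusted p-value in edgeR's quasi-likelihood test, where 7 of all 17090 genes passed, 0.041%. The smallest adjusted p among the 61 was 0.575. With an unadjusted p under 0.05 there were 9 genes lower after erianin, 14.8% of the 61 against 5.89% of all genes tested, and 2 genes higher, 3.28% against 2.21%. DESeq2 and limma-voom each put 10 of the 61 under an unadjusted p of 0.05 and 0 past the adjusted threshold. On simulated counts the same test recovered 23.9% of genes with a 1.5-fold change built in. For a built-in change of 2-fold it recovered 59.1%, and for 4-fold 91.5%. The simulated libraries had no library standing apart and no trend with GC content, both of which these data hold (below). These shares are therefore not the power for the 61 genes in these libraries.

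The sizes were small. Of the 61 genes, 58 had a fitted fold change within 1.5-fold, 3 were further down (EIF4E3, EIF5B and EIF3A) and 0 further up. Of all genes tested, 9.3% were at least 1.5-fold lower and 6.26% at least 1.5-fold higher. Below 0 lay 37 and above 0 lay 24, and the median log2 fold change was −0.05, against −0.01 for all genes tested, of which 51.3% were below 0. Both erianin libraries lay below both DMSO libraries in 18 genes, 29.5%, and this was so in 24.4% of all genes. Both lay above in 12 genes, 19.7%, against 21.7% of all genes. Those shares are near those of all genes tested. The shares of all genes tested, here, above and beside the other lists below, were not matched for expression level. Of the 61 genes, 56 had a mean log2 CPM of 3 or more. All genes of that level were compared only by class of GC content (below). How far level accounts for the differences or likenesses in these shares was not tested.

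The 2 erianin libraries were not alike. Erianin replicate 2 was the lowest of the 4 libraries in 32 of the 61 genes and the highest in 21. Erianin replicate 1 was the lowest in 5 and the highest in 5. These counts were not made over all genes tested, so they do not set the 61 genes apart. Against the mean log2 CPM of the DMSO libraries, erianin replicate 1 had a median of 0.006 over the 61 genes, and erianin replicate 2 one of −0.098. CPM, counts scaled to the TMM-adjusted library, is the scale for comparing libraries within a gene. With 1 erianin library left out, the other stands alone, and the fit takes it to vary as the DMSO libraries do. Without erianin replicate 1, 22 of the 61 genes passed the threshold, 36.1%, with 14 lower and 8 higher. In that fit 10.2% of all genes were called lower and 7.3% higher. Without erianin replicate 2, 0 of the 61 passed, against 0.132% of all genes, and the median log2 fold change was 0.007.

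**Figure D2:**
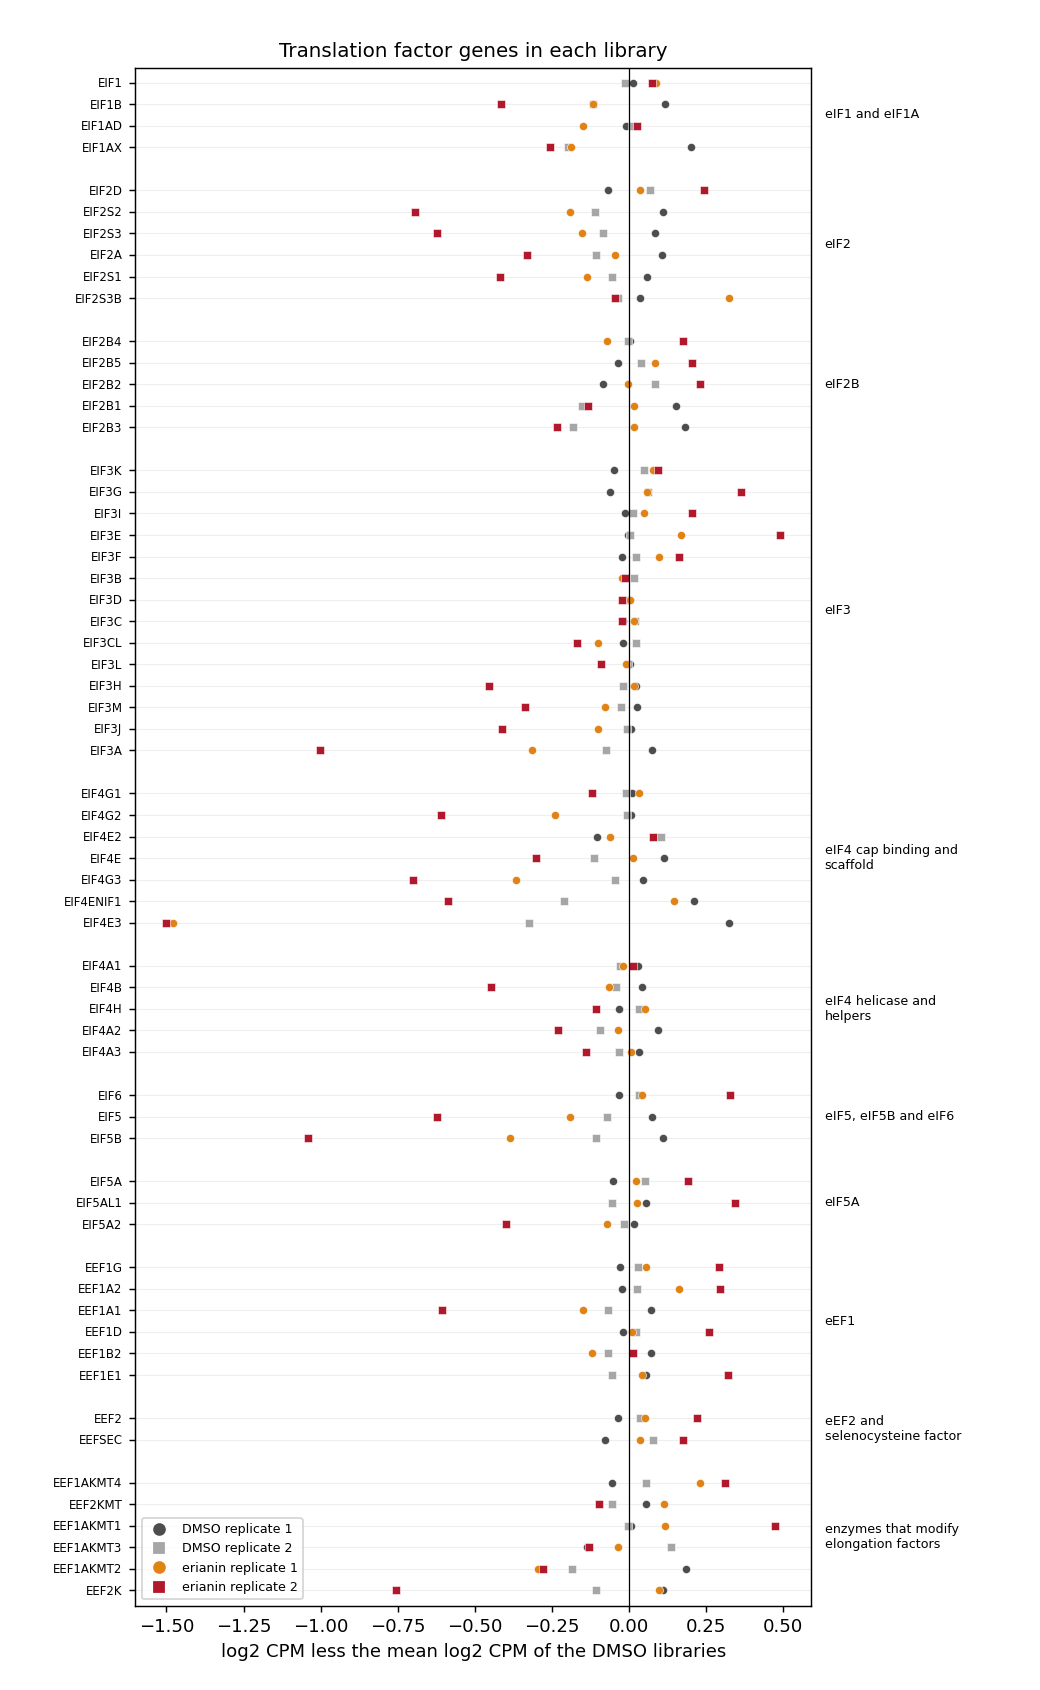
log2 CPM less the mean of the DMSO libraries (x axis, 0 marked) for each of the 61 translation factor genes in the 4 libraries. Erianin replicate 2 is the lowest point in 32 genes and the highest in 21. Erianin replicate 1 is the lowest in 5 and the highest in 5. These counts were not made over all genes tested.

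In the eIF2 trimer, EIF2S2 had 106 and 91.0 CPM in the DMSO libraries and 85.9 and 60.7 CPM in the erianin libraries, and values below keep this order of replicates. The groups did not overlap, and erianin replicate 2 lay furthest from the rest. Its log2 fold change was −0.43 (SE 0.17, n = 2 per group, edgeR adjusted p = 0.575). It was −0.71 without erianin replicate 1 and −0.20 without erianin replicate 2. EIF2S3 followed the same order of libraries, with 119, 106, 101 and 72.8 CPM and a log2 fold change of −0.37, which was −0.64 and −0.15 without the one and the other erianin library. EIF2S1, the subunit phosphorylated under stress, had −0.27, and −0.01 with the trend with GC content removed that is described below. The γ subunit has a close copy, EIF2S3B, which is 97.9% identical over 1587 nt of transcript. It had 1.92, 1.83, 2.36 and 1.82 CPM, 2.44% or less of the summed counts of the 2 genes in each library. EIF2D, a separate factor that can deliver initiator tRNA, had the highest level of the group at 31.4 FPKM and 0.14 for its log2 fold change.

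The exchange factor eIF2B showed no common direction. Of its 5 genes 2 were below 0 and 3 above, from −0.11 (EIF2B3) to 0.14 (EIF2B5, the catalytic ε subunit). EIF2B5 had 76.5, 80.6, 83.3 and 90.4 CPM, with both erianin libraries above both of DMSO. EIF2B4 had 61.9, 61.7, 58.7 and 69.8 CPM, and its erianin libraries lay on either side of the DMSO pair. Among the scanning factors, EIF1 had 591, 581, 623 and 618 CPM with a log2 fold change of 0.08. Its relative EIF1B was at −0.26, with 18.3, 15.5, 15.5 and 12.6 CPM.

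Within eIF3 the subunits went apart, with 9 of 14 genes below 0 and 5 above. EIF3A (ENSG00000107581, chromosome 10, 119033670 to 119080823, minus strand on GRCh38), the large scaffold subunit, had 84.3, 76.2, 64.5 and 40.04 CPM. Its groups did not overlap, and its log2 fold change was −0.62 (SE 0.20, edgeR adjusted p = 0.575). Its value was −1.01 without erianin replicate 1 and −0.31 without erianin replicate 2. EIF3E lay at the other end, with 358, 359, 403 and 503 CPM. Both erianin libraries were above a DMSO pair that barely differed, and the log2 fold change was 0.34 (SE 0.12, edgeR adjusted p = 0.575). That value was 0.48 without erianin replicate 1 and 0.17 without erianin replicate 2. EIF3E has 31 rows, and its leading row held 61.2%, 81.9%, 26.5% and 80.1% of its counts in the 4 libraries. Both are subunits of the same complex, and in the per-library values the lower one and the higher one deviated most in the same library. EIF3K, the most abundant, had 399, 428, 436 and 441 CPM, a log2 fold change of 0.08.

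EIF3C and EIF3CL are near-identical copies on chromosome 16, with 99.9% identity over 3085 nt, so their counts depend on how the authors' tools split shared reads. EIF3C took 52.2% of their summed counts in both DMSO libraries and 54.3% and 54.8% after erianin. Summed, they had 663, 682, 655 and 631 CPM and a log2 fold change of −0.06. The values for each of the 2 genes alone, −0.003 for EIF3C and −0.13 for EIF3CL, are therefore uncertain.

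Of the eIF4F genes, the helicase EIF4A1 differed little between libraries, with 1971, 1893, 1904 and 1947 CPM and a log2 fold change of −0.005 (SE 0.09). It gave 95.2% to 96.1% of the summed counts of EIF4A1 and its paralog EIF4A2 in the 4 libraries. EIF4A2 was at −0.13. EIF4E, the cap-binding protein, had 16.2, 13.8, 15.1 and 12.1 CPM and a log2 fold change of −0.14, with overlapping groups. Its relative EIF4E2 was at 0.01. EIF4B, a helper of the helicase, had 340, 321, 316 and 242 CPM and −0.24.

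The scaffold family differed among its members. EIF4G1 had 524, 516, 532 and 478 CPM and a log2 fold change of −0.04, with overlapping groups. EIF4G2, which lacks the part that binds eIF4E and works in cap-independent initiation, had 209, 207, 176 and 136 CPM. Its groups did not overlap and its log2 fold change was −0.41 (SE 0.13, edgeR adjusted p = 0.575). It was −0.62 without erianin replicate 1 and −0.24 without erianin replicate 2. EIF4G3, a close relative of EIF4G1, had 31.2, 29.3, 23.4 and 18.6 CPM, again without overlap, and −0.52 (SE 0.16). That value was −0.71 without erianin replicate 1 and −0.37 without erianin replicate 2. EIF4G3 has 16 rows, and its leading row held 61.7%, 46.1%, 0% and 32.5% of its counts in the 4 libraries. EIF4G1 made up 71.5% and 71.4% of the summed counts of EIF4G1 and EIF4G2 in DMSO, and 75.1% and 77.8% after erianin. The low EIF4E3 had the most negative log2 fold change, −1.65 (SE 0.68), on 0.85, 0.53, 0.22 and 0.22 CPM. Its erianin libraries held 14 and 12 counts, so that value is imprecise.

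Subunit joining gave the largest log2 fold change of the translation factor genes other than EIF4E3. EIF5B (ENSG00000158417, chromosome 2, 99337353 to 99401326, plus strand on GRCh38), the GTPase that joins the large subunit, had 34.6, 29.7, 24.5 and 15.6 CPM. The groups did not overlap, and erianin replicate 2 had the lowest value. The log2 fold change was −0.68 (SE 0.22, edgeR adjusted p = 0.575), or 1.60-fold lower. It was −1.06 without erianin replicate 1 and −0.39 without erianin replicate 2. Of its 5 rows, the leading one held 99.8%, 99.7% and 99.8% of its counts in the first 3 libraries and 25.2% in erianin replicate 2, and the part of this in the difference was not tested. EIF5, which triggers GTP hydrolysis on eIF2, had 56.4, 51.0, 47.0 and 34.8 CPM and a log2 fold change of −0.39, or −0.63 and −0.19 without erianin replicates 1 and 2 in turn. EIF6, which keeps the large subunit from joining too early, had 592, 619, 623 and 760 CPM and 0.19, with the same library furthest out in the other direction.

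EIF5A had 1139, 1225, 1199 and 1348 CPM and a log2 fold change of 0.11, with overlapping groups. It gave 98.4% to 99.0% of the summed counts of EIF5A and EIF5A2. EIF5A2, a paralog known from cancers, was at −0.23, with 18.3, 17.9, 17.2 and 13.7 CPM. The copy EIF5AL1, 97.4% identical to EIF5A over 1159 nt, was at 0.19, and reads of EIF5A could reach it.

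In elongation, the 2 genes for eEF1A went opposite ways. EEF1A1 (ENSG00000156508, chromosome 6, 73515750 to 73523797, minus strand on GRCh38), the form made in most tissues, had 3707, 3366, 3188 and 2319 CPM. Both erianin libraries lay below both of DMSO, and the log2 fold change was −0.36 (SE 0.15, edgeR adjusted p = 0.575). It was −0.62 without erianin replicate 1 and −0.15 without erianin replicate 2. EEF1A2 (ENSG00000101210, chromosome 20, 63488012 to 63499322, minus strand on GRCh38), the form known from neurons and muscle and found raised in some tumours, had 3838, 3971, 4368 and 4784 CPM. Both erianin libraries lay above both of DMSO, and the log2 fold change was 0.23 (SE 0.10, edgeR adjusted p = 0.575). EEF1A1 therefore made up 49.1% and 45.9% of the pair's counts in DMSO and 42.2% and 32.7% after erianin. The summed CPM of the pair was 7545, 7337, 7556 and 7103, so the total moved less than the makeup. Per length, the FPKM ratio of EEF1A1 to EEF1A2 was 0.887 and 0.615 in DMSO and 0.668 and 0.413 after erianin, and on that scale the groups overlapped.

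EEF1A1 is spread over 19 rows of the deposited table, and its leading row held 92261, 57, 90699 and 385 counts, so single rows were not used. It also has 12 near copies elsewhere, which took 7.11% to 7.98% of the counts of EEF1A1 and its copies. Summed with them its log2 fold change was −0.36. EEF1A2 has no such copy.

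Of the eEF1B subunits, EEF1G had 3809, 3973, 4045 and 4759 CPM and a log2 fold change of 0.18. A processed copy that is 99.2% identical over 1314 nt took 16.8% to 18.1% of the sum of the 2, and the log2 fold change of that sum was also 0.18. EEF1D, the δ subunit, had 1100, 1133, 1123 and 1337 CPM and 0.14. EEF1B2, the α subunit, had 162, 147, 142 and 155 CPM and −0.05, with overlapping groups. EEF1E1, a protein of the multi-synthetase complex named with this family, was at 0.19. EEF2 had 8069, 8484, 8576 and 9631 CPM and a log2 fold change of 0.14 (SE 0.10), and the selenocysteine factor EEFSEC was at 0.10. Both values were below 0 once the trend with GC content described below was removed (−0.01 and −0.08).

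**Figure D3:**
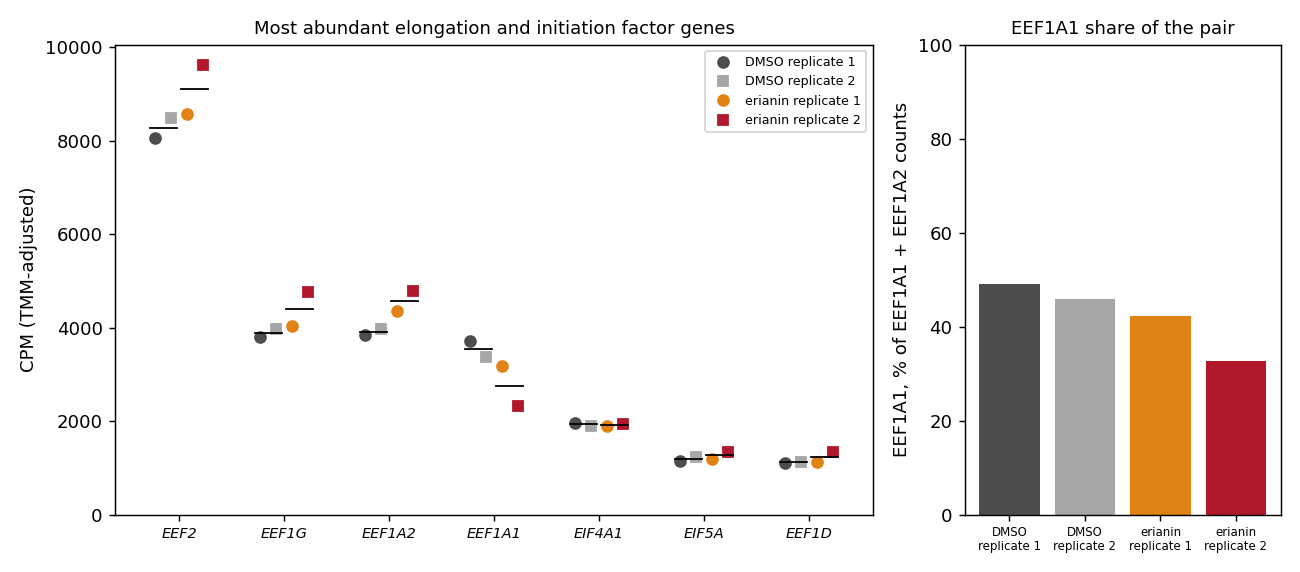
Left, CPM by library (points) and group mean of 2 libraries (lines) for 7 of the most abundant translation factor genes. Right, the counts of EEF1A1 as a percentage of those of EEF1A1 and EEF1A2, from 49.1% in DMSO replicate 1 to 32.7% in erianin replicate 2.

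The enzymes that modify elongation factors were low, from 1.27 FPKM for EEF2K to 16.9 for EEF1AKMT4. EEF2K, the kinase that inhibits eEF2, had 12.5, 10.8, 12.4 and 6.87 CPM. Its log2 fold change of −0.27 came from erianin replicate 2, and it was 0.09 without that library. EEF1AKMT4, a lysine methyltransferase of eEF1A, had 16.7, 18.1, 20.4 and 21.6 CPM and a log2 fold change of 0.27. It overlaps the gene CAMK2N2, with 373 nt of transcript at 100% identity, and how shared reads were split is not given. Of the 6 genes 3 were below 0 and 3 above.

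The direction of a gene went with the GC content of its longest transcript. Over the 61 genes the Spearman correlation of GC content with log2 fold change was 0.50 (Pearson 0.47), a description across genes that share the same libraries. It was 0.47 in each erianin library taken alone against the DMSO mean. Of 13 genes under 40% GC, 11 were below 0, with a median of −0.23. Over all genes of that class whose mean log2 CPM was 3 or more, 668 of 803 were below 0 and the median was −0.27 (5 of the 61 genes lie under that level). Of 11 genes at 55% GC or more, 2 were below 0, with a median of 0.14, against 291 of 3006 and 0.16 for all genes. The members' medians were thus close to those of all genes in these classes. From 40% to 45%, 45% to 50% and 50% to 55% GC, 6 of 9, 13 of 19 and 5 of 9 members were below 0. For all genes these were 1119 of 1375, 911 of 1370 and 529 of 1460. The medians there were −0.26, −0.05 and −0.01 for members, against −0.23, −0.10 and 0.05 for all genes. EIF5B has 38.6% GC, EIF3A 43.2%, EEF1A1 46.1% and EEF1A2 64.8%, while EIF3E is at 37.9% and went against the trend. So did others, among them EEF1E1 at 36.9%, EIF3F at 40.6% and EIF2D at 44.2%. The longest transcript of a gene need not be the form these cells use.

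With the trend of all genes with GC content and length removed, 35 of the 61 genes were below 0 and 26 above, and the median was −0.01. Of the 11 genes with an unadjusted p under 0.05 before, 8 had a log2 fold change smaller by more than 1.5 times. EIF5B was at −0.41, EIF3A at −0.36, EIF4G3 at −0.32, EIF2S2 at −0.30, EEF1A1 at −0.20, EIF2S3 at −0.19, EIF4G2 and EIF5 at −0.11 and EEF1A2 at 0.09. EIF5A2 was at −0.003 and EEF1AKMT4 at 0.09. EIF3E was at 0.52, larger than before. Others above 0 also grew, among them EIF3F (0.46), EIF2D (0.40), EIF5AL1 (0.38) and EEF1E1 (0.31). An unadjusted p under 0.05 by edgeR was then seen in 5 of the 61 genes lower and 5 of the 61 higher. Of the 17090 genes tested it was seen in 534 lower (3.12%) and 574 higher (3.36%), a smaller share each way. None of the 61 passed the adjusted threshold. What the trend comes from was not tested.

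**Figure D4:**
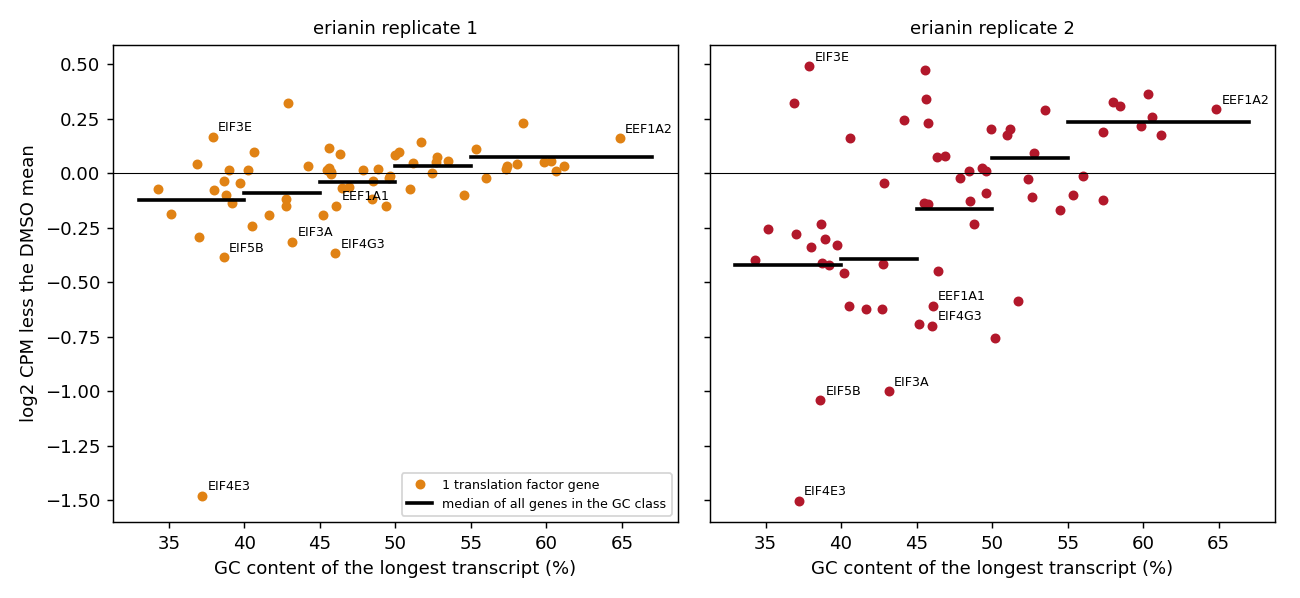
GC content of the longest transcript (x axis, percent) against log2 CPM less the DMSO mean (y axis) for the 61 translation factor genes (points) in each erianin library. Black lines are medians over all genes whose mean log2 CPM was 3 or more, in 5 classes of GC content, which run from −0.42 under 40% GC to 0.24 at 55% or more in erianin replicate 2.

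Other genes of translation, outside the EIF and EEF names or left out by the rule, were taken from 6 lists. Of 47 tested, 0 passed the adjusted threshold. There were 8 lower (17.0%, against 5.89% of all genes) and 1 higher (2.13%, against 2.21%) with an unadjusted p under 0.05 by edgeR. Below 0 were 30, 63.8% against 51.3% of all genes, and the median log2 fold change was −0.16. With the trend removed, 28 were below 0 and the median was −0.04. Among the eIF2α kinases and their phosphatase 7 of 9 were below 0 (77.8%), with EIF2AK4, the kinase that senses uncharged tRNA, at −0.72 on 12.0, 11.9, 8.73 and 5.78 CPM. Of the 8 termination and recycling genes 6 were below 0 (75.0%). Among them were the ribosome rescue gene HBS1L (−0.71), the release factor gene GSPT1 (−0.37) and the recycling gene DENR (−0.37). The higher gene was DHPS, which makes the first step of the hypusine on eIF5A, at 0.40 on 42.7, 40.8, 53.4 and 56.5 CPM. Of the initiation factors of mitochondria, MTIF2 was at −0.59 and MTIF3 at 0.05. With the trend removed, EIF2AK4 was at −0.57, HBS1L at −0.42, GSPT1 at −0.06 and DENR at −0.17. DHPS was then at 0.21, MTIF2 at −0.40 and MTIF3 at 0.19. The gene for the eIF4E-binding protein EIF4EBP1 was at 0.21, and EIF4EBP2 at −0.24, and both changed sign with the trend removed (−0.046 and 0.038). The list of 10 TOP messengers, which holds 9 of the translation factor genes and PABPC1, had 5 genes below 0 and 5 above, with a median of 0.04. It is a short selection and does not stand for TOP messengers as a class.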

How the data were processed

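RNA of 4 libraries of SW1990 cells was sequenced. Per the submitters' processing notes, fastp, STAR, StringTie 2.2.1, featureCounts 2.0.1 and GRCh38 were used, with no role or order. The sources used here do not give the annotation, the strandedness or the rule for shared reads. The authors deposited estimated counts as whole numbers, not normalized, in 107429 rows without transcript names; plain counts had been assumed when the tests were planned. The authors deposited FPKM for the same rows. Rows were summed per gene ID. Symbols were looked up in a gene name table, and position, GC content and length from GENCODE 29; start sites came from RefSeq (GRCh38.p14).

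Of 25798 gene IDs, filterByExpr (minimum count 10) left 17090, tested with edgeR 4.0.16 (R 4.3.3): TMM factors, quasi-likelihood F test, group alone, 2 residual degrees of freedom, Benjamini-Hochberg adjustment, threshold 0.05. SEs are the log2 fold change over the square root of F. The common biological coefficient of variation was 0.233. Alternatives, 15 in number, included DESeq2 1.42.0, limma-voom 3.58.1, a replicate block, a spline in GC content and length (mean log2 CPM of at least 3), near copies summed (BLAST+ 2.17.0, at least 95% identity over 200 nt) and leaving out each library, which leaves an arm of 1 whose spread is taken from the other group. The edgeR fit was tested on simulated data.

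The genes and lists were chosen with earlier results of these data known. Named genes were those past the threshold, the eIF4F, eEF1 and eEF2 genes, the highest FPKM and the highest and lowest log2 fold change in each role among genes with a mean log2 CPM of 3 or more, paralog pairs, and up to 3 genes per other list; others (such as EIF5, EIF6, EIF2S1, EIF3G, EIF3H, EIF3J and EIF3M where outside it) were named after their values were seen.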

Additional observations from a re-analysis of the deposited data

How the results depend on the processing

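Of all genes tested, 7 passed the threshold. The count was 2 with library totals alone, 21 with DESeq2, 0 with limma-voom (which put 10 of the 61 translation factor genes under an unadjusted p of 0.05), and 24 to 3166 with 1 library left out. The samples share only a replicate number, since 2 pairs with a correlation of 0.22 do not establish pairing; with the number as a replicate block 334 genes passed (1.95%), 14 with the block and the GC and length trend removed. Of the translation factor genes 0 passed, and 0 to 22 passed with 1 library left out, 22 of them without erianin replicate 1. With the replicate block 6 passed, all lower: EIF3A, EIF4G2, EIF2S2, EIF2S3, EEF1A1 and EIF5B; with the block and the trend removed 0 passed (smallest edgeR adjusted p 0.177). The median log2 fold change of −0.05 was −0.15 with library totals alone, and −0.109 to 0.0068 with 1 library left out. The cause was not tested.

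Some named genes changed sign, EEF2K, EIF6, EIF2S3B, EIF4E and EIF4A2 among them. With the GC and length trend removed, and then with the replicate block as well, the log2 fold changes were −0.01187 and −0.01194 for EEF2, −0.083 and −0.082 for EEFSEC, 0.108 and 0.107 for EIF3C, −0.026 and −0.028 for EIF3K, 0.150 and 0.150 for EIF4A2, 0.202 and 0.204 for EIF4E, −0.0757 and −0.0755 for EIF5A, and −0.0148 and −0.0150 for EIF6. The trend was taken from each gene's longest transcript, at 47.9% GC for EIF3C and 54.5% for its near-identical copy EIF3CL. EIF3CL was at −0.220 with the trend removed, so the sign of EIF3C in that setting is uncertain. With library totals alone the log2 fold changes were −0.017 for EIF1, −0.047 for EIF2B4, −0.014 for EIF3K and −0.095 for EIF4E2. The sum of EIF2S3B and its copy EIF2S3 was at −0.361, a value set by EIF2S3, which holds 97.6% to 98.4% of it. EIF3C was at 0.0136 with DESeq2 size factors and with DESeq2, 0.0164 with upper-quartile factors and 0.0031 with a CPM minimum of 1. EIF4A1 was at 0.0116, 0.0148 and 0.00098 under the same settings. With 1 library left out the ranges were −0.122 to 0.017 for EEF1B2, −0.772 to 0.094 for EEF2K, −0.287 to 0.079 for EIF2B3, −0.072 to 0.166 for EIF2B4, −0.055 to 0.330 for EIF2S3B, −0.032 to 0.019 for EIF3C, −0.034 to 0.024 for EIF4A1, −0.317 to 0.010 for EIF4E, −0.095 to 0.112 for EIF4E2 and −0.131 to 0.034 for EIF4G1.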
